A study of Mus musculus with 6 samples.

Results

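The pyruvate dehydrogenase complex and the kinases that switch it off were read as 8 genes in mouse hind limb skeletal muscle. Pdha1, Pdhb, Dlat and Dld encode subunits of the complex, and Pdk1, Pdk2, Pdk3 and Pdk4 encode its kinases. Every probe set annotated with 1 of these symbols was taken, which gave 16 probe sets of the 45101 on the array and 8 genes of the 18193 with a probe set that names 1 symbol. RNA came from 3 mice deficient in the laminin alpha 2 chain and from 3 wild type mice, all 4 weeks old, and each mouse was a separate replicate on 1 Affymetrix array. The laminin alpha 2 chain is part of the laminin that ties muscle fibres to their basement membrane. The labels name neither the allele nor the strain, and all hind limb muscle of a mouse went into 1 RNA sample, so fibre types and the other cells of the tissue are mixed. In such bulk RNA, fewer cells of a type and less RNA per cell cannot be told apart.

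The complex sits in the mitochondrial matrix and converts pyruvate to acetyl-CoA, the step that lets carbon from glucose enter the tricarboxylic acid cycle. Its E1 enzyme is built from Pdha1 and Pdhb, its E2 core from Dlat, and its E3 enzyme is Dld, which other 2-oxoacid dehydrogenase complexes also use. The kinases phosphorylate the Pdha1 protein and stop the complex, and the phosphatases Pdp1 and Pdp2 reverse this. In skeletal muscle Pdk4 RNA is known to rise in fasting and after glucocorticoids, when muscle turns from glucose to fatty acids. RNA levels do not show how much of the enzyme is phosphorylated.

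Signals are linear and differ in brightness between probe sets, so levels of different genes are not set against each other. Array medians lay between 20 and 26.1 signal units. Fold changes are given as the deficient minus the wild type mean of log2(signal + 16), with the 95% confidence interval in brackets; the constant of 16 shrinks the changes of dim genes. Lama2, which encodes this laminin chain, read 82, 31.1 and 140.4 in deficient replicates 1, 2 and 3, against 428.7, 415.6 and 326.2 in wild type replicates 1, 2 and 3. It fell by 2.17 on the log2 scale (SE 0.374, limma adjusted p = 0.0207), and it no longer passed without deficient replicate 1 (adjusted p = 0.0585), wild type replicate 1 (0.101) or wild type replicate 2 (0.0822). The sources used here do not say where its probe set lies against the altered stretch. The muscle fibre markers Ckm, Acta1, Myh4, Mb and Pygm each read at least 3196.6 in all 6 libraries, and the summed signal of 10 such markers was 83357 to 109723 in deficient and 106295 to 114530 in wild type libraries. Of those 10, Pygm, the muscle glycogen phosphorylase, fell (-0.76, adjusted p = 0.0419) and 9 did not pass. Lower signal in every deficient library than in any wild type library was seen for 4 of the 10, against 12.4% of all genes tested. Deficient replicate 3 and wild type replicate 3 lacked Y-linked transcripts, with Eif2s3y at 9.1 and 10.7 signal units, against 414.6 to 573.7 in the other libraries. Xist read 396.3, 16.1 and 1839.1 in deficient replicates 1, 2 and 3, against 1.4, 19.1 and 1163.1 in wild type replicates 1, 2 and 3. Deficient replicate 1 thus held both Y-linked transcripts and a raised Xist signal.

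The promoters of the 4 subunit genes and of Pdk4 are shown because the subunit genes lay lower together in deficient muscle while Pdk4 was far higher in 1 deficient library. Each runs 5′ to 3′ on the gene's strand, from 250 bases before to 50 bases after the annotated start (RefSeq, GRCm38.p6), with matches to a GC box or to a CCAAT box, on either strand, in capitals.
Pdha1 (chrX:160138381-160138680, minus strand): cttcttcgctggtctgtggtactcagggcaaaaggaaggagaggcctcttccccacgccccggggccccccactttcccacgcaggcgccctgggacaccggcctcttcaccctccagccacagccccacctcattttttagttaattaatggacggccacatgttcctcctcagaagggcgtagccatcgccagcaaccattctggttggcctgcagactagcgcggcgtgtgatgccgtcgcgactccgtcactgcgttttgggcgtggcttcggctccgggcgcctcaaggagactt
Pdhb (chr14:8172943-8173242, minus strand): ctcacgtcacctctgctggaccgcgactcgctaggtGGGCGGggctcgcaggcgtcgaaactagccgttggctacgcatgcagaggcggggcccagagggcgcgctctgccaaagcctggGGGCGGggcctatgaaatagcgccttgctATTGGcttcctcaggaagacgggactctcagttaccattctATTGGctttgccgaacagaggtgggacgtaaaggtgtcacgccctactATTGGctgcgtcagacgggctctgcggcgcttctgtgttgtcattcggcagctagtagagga
Dlat (chr9:50659731-50660030, minus strand): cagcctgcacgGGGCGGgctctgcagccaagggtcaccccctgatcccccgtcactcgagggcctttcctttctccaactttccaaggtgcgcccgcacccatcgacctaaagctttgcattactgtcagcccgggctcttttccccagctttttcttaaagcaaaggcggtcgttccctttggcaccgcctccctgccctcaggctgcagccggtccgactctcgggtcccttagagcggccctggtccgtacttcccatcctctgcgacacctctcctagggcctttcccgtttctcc
Dld (chr12:31351422-31351721, minus strand): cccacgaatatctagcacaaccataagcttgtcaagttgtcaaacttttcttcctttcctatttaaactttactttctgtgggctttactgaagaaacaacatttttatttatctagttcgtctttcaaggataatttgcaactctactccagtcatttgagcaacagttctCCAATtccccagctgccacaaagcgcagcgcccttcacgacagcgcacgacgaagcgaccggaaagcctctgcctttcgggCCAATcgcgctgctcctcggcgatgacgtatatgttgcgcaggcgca
Pdk4 (chr6:5496229-5496528, minus strand): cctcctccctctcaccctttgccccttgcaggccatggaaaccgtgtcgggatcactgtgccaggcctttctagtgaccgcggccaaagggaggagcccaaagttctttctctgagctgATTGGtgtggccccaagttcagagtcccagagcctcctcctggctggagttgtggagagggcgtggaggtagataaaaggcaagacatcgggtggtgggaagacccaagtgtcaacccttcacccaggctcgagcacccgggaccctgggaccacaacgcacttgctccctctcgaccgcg
The GC box was searched as GGGCGG and the CCAAT box by its own letters, and no match of the one overlapped a match of the other here. Pdhb held both kinds, with GC boxes starting 214 and 130 bases before the start and reverse CCAAT boxes at 101, 60 and 12 bases before it. Dlat held a GC box only and Dld CCAAT boxes only, and Pdha1 held neither in this window. Pdk4 held 1 reverse CCAAT box, 131 bases before the start. A GC box was in 4 of 10 promoters of the 8 genes and a CCAAT box in 5 of 10, against 35.7% and 37.4% of 32851 mouse promoters of the same length. The core of a nuclear receptor element, spelled AGGTCA, was in 0 of the 10 and in 16.3% of all promoters. A forkhead element, spelled GTAAACA, was in 0 of the 10 and in 3.65% of all. The subunit genes lie on chromosomes X, 14, 9 and 12 and Pdk4 on chromosome 6, so none of these 5 shares a chromosome with another. Pdk1, Pdk2 and Pdk3 lie on chromosomes 2, 11 and X, and Pdk1 and Pdk2 have a pair of annotated starts each.

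All 4 subunit genes had lower signal in each deficient library than in any wild type library, with deficient means at 69.3% to 76.3% of the wild type means. None of them passed the test over all 13113 genes, and neither did any kinase. With limma (Benjamini-Hochberg adjusted p under 0.05), 0 of the 8 genes were called, where 362 genes or 2.76% of those tested were. At an unadjusted p under 0.05 the count was 4 of 8, against 18.9% of all genes. Groups that did not overlap, with deficient lower, were found for 4 of the 8, all of them subunit genes, against 12.4% of all genes tested. The median log2 fold change of the 8 was -0.40, beside 0.02 over all genes.

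**Figure D1:**
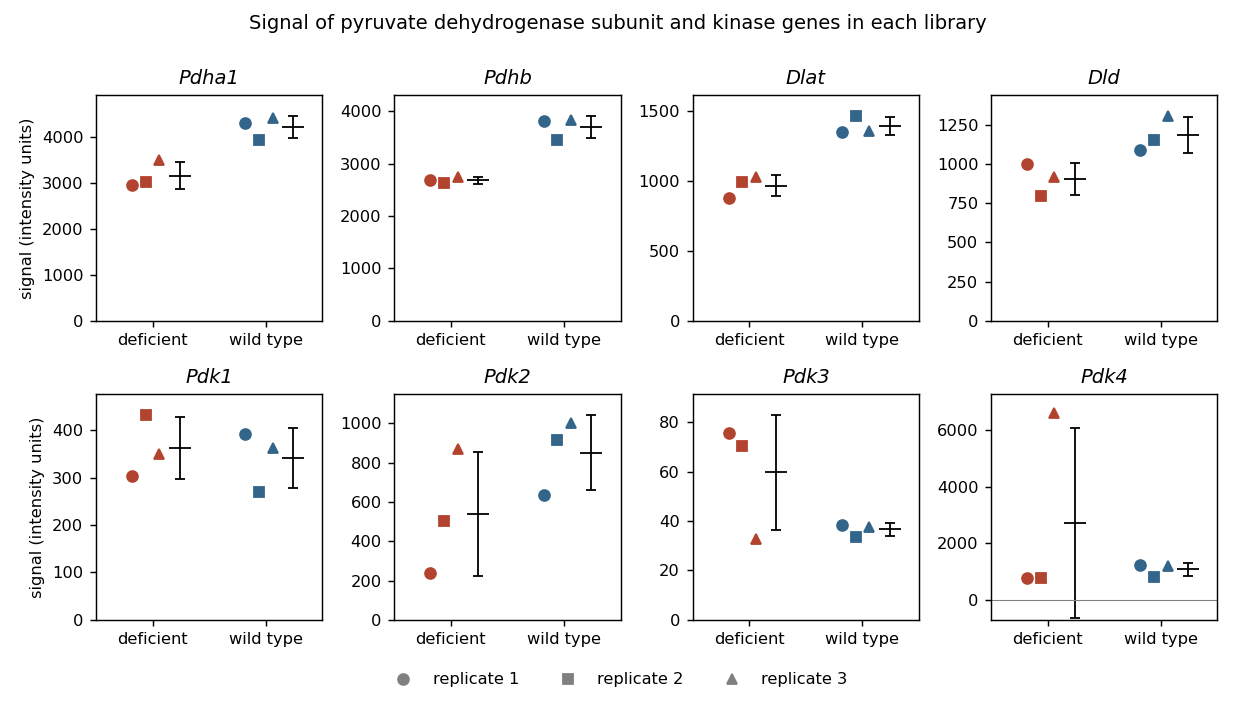
Signal (linear intensity units, from 0 except for Pdk4, whose error bar reaches below it) of each gene's brightest probe set in the 3 deficient libraries, left, and the 3 wild type libraries, right; marker shape is the replicate number, and the bars are mean and SD (n = 3). The 4 subunit genes in the upper row separate the groups, while the kinases in the lower row overlap, with Pdk4 at 6603.2 in deficient replicate 3.

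Pdha1, the catalytic E1 alpha subunit that carries the phosphorylation sites, read 2954.9, 3019.6 and 3486.7 in deficient libraries, against 4311.7, 3933.3 and 4400.6 in wild type libraries. The groups did not overlap, and the mean was 3154 ± 290 in deficient and 4215 ± 248 in wild type libraries (SD, n = 3 each), or 74.8% of wild type. The log2 fold change of -0.42 (-0.72 to -0.12) did not pass (adjusted p = 0.132). The second Pdha1 probe set, 1449137_at, read 1206.3, 571.4 and 834.9 in deficient libraries, against 1879.4, 1965.8 and 1639 in wild type libraries, so its deficient mean was 47.6% of wild type. Its fold change of -1.12 (-1.67 to -0.57) was larger than that of the first, but the deficient libraries were spread 2.11-fold, and it did not pass over all probe sets (adjusted p = 0.0610). Averaging both probe sets on the log2 scale gave -0.77 for Pdha1 (adjusted p = 0.0481), the only setting of the 18 alternatives tried in which the gene Pdha1 was called. Tested as a probe set, 1449137_at was called in 3 of 18 settings, counting this fit. These were the replicate block, the block for Y-linked transcripts and the fit without deficient replicate 1.

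Pdhb, the E1 beta subunit, read 2681.4, 2623.9 and 2748.6 in deficient libraries, against 3814.6, 3449.9 and 3841.4 in wild type libraries. The deficient values were within 1.05-fold of each other and all below the lowest wild type value, with means of 2685 ± 62.4 in deficient and 3702 ± 219 in wild type libraries (SD, n = 3 each). The log2 fold change was -0.46 (-0.75 to -0.17, adjusted p = 0.0935). Its dimmer probe set, 1448214_at, read 64.5, 128.5 and 90.1 in deficient libraries, against 134.2, 172.1 and 175.7 in wild type libraries. That probe set separated the groups as well, by -0.71 (-1.28 to -0.14, adjusted p = 0.207). Pdhb and Pdha1 encode the partners of 1 enzyme, and their brightest probe sets stood at 72.5% and 74.8% of wild type.

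Dlat, the E2 acetyltransferase that forms the core of the complex, read 878, 989.3 and 1024.3 in deficient libraries, against 1350.9, 1465.1 and 1355.7 in wild type libraries by its brightest probe set. The groups did not overlap, with means of 964 ± 76.4 in deficient and 1391 ± 64.6 in wild type libraries (SD, n = 3 each), at a log2 fold change of -0.52 (-0.86 to -0.18, adjusted p = 0.102). The probe set 1426265_x_at gave -0.59 (-0.98 to -0.20, adjusted p = 0.134). Another Dlat probe set, 1452005_at, read 352.2, 430.4 and 397.8 in deficient libraries, against 812.6, 706.9 and 808.7 in wild type libraries. It fell by 0.95 on the log2 scale (SE 0.177, adjusted p = 0.0337), to 50.7% of wild type, and was the only 1 of 15 tested probe sets of the 8 genes to pass when each probe set was tested on its own. Over all 27022 probe sets, 1.42% passed. Counting this fit, it was called in 10 of 18 settings, its adjusted p ran from 0.0116 to 0.551, and leaving out any library but deficient replicate 3 ended the call. The 3 probe sets of Dlat are annotated with the same source transcript and are not independent of each other.

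Dld, the E3 dihydrolipoamide dehydrogenase, read 999.4, 795.9 and 916.1 in deficient libraries, against 1089.3, 1156 and 1309.7 in wild type libraries. The highest deficient and the lowest wild type value lay close together, the means were 904 ± 102 in deficient and 1185 ± 113 in wild type libraries (SD, n = 3 each), and the log2 fold change of -0.39 (-0.76 to -0.02) did not pass (adjusted p = 0.243). The second Dld probe set read at most 11.6 in any library, under the filter of 13.9 on the mean, and was not tested. Of the 9 subunit probe sets, the other 8 all had lower signal in every deficient than in every wild type library. The share over all probe sets was not counted, and over genes, each read by its brightest probe set, it was 12.4%. These 8 come from 4 genes and the same 6 mice, so they are not separate observations.

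**Figure D2:**
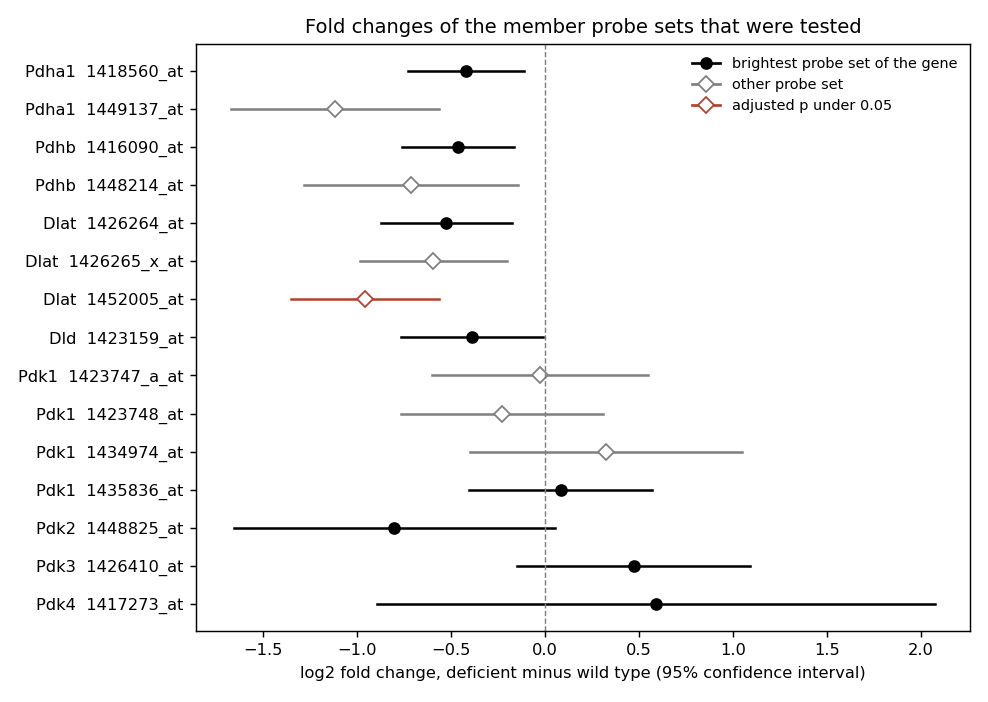
Log2 fold change, deficient minus wild type, with its 95% confidence interval, for the 15 tested probe sets of the 8 genes; filled points are the brightest probe set of a gene. The 8 subunit probe sets lie left of 0, 1 of them, Dlat 1452005_at in red, with an adjusted p under 0.05, and the intervals of the 7 kinase probe sets all include 0.

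Several other measures moved with the lower subunit signals. Brown adipocytes are rich in mitochondria, and the summed signal of 8 brown adipocyte markers was 7736 to 9439 in deficient libraries, against 12542 to 14585 in wild type libraries. Cox8b and Cox7a1, which muscle fibres also express, made up 7081 to 8647 of that sum in deficient and 11364 to 12255 in wild type libraries. The other 6 markers summed to 655.1, 791.8 and 832.4 in deficient libraries, against 2205.3, 1178 and 2950.4 in wild type libraries. In that list 3 of 8 markers were called lower and 1 higher, and the defining marker Ucp1 read 43.8, 12.7 and 43.7 in deficient libraries, against 1033.4, 356.7 and 1481.2 in wild type libraries. Of 7 slow fibre markers 1 rose, Tnni1, slow troponin I (1.34, adjusted p = 0.0199). The groups separated with deficient higher for 4 of the 7, against 1608 of all 13113 genes, and the median log2 fold change of the 7 was 0.85. The sum of 10 macrophage markers was 4750 to 13230 in deficient and 2825 to 4124 in wild type libraries, with 3 of 10 called higher. Over all 13113 genes, 170 were called higher and 192 lower. Hair follicle markers summed to 43.9 to 77.5 in deficient libraries, against 2631.8, 1047.5 and 133 in wild type libraries. In the actin control, a sign of RNA quality, the ratio of the 5 prime to the 3 prime probe set was 0.819, 0.510 and 0.573 in deficient libraries, against 1.15, 1.05 and 1.04 in wild type libraries. The ratios of the other controls, Gapdh, Pcx and Tfrc, overlapped between the groups. The part of these in the subunit values was not tested. Against the wild type library with the fewest hair markers alone, the subunit fold changes were -0.48 for Pdha1, -0.51 for Pdhb, -0.49 for Dlat and -0.53 for Dld. Their direction was fixed beforehand, because the groups of these genes did not overlap. That library, wild type replicate 3, is 1 mouse and also lacked Y-linked transcripts, so these values do not separate the part of hair.

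Among the libraries with Y-linked transcripts, 2 in each group, the log2 differences of the subunit genes were -0.46 for Pdha1, -0.45 for Pdhb, -0.59 for Dlat and -0.33 for Dld. Between the pair without them, 1 library in each group, they were -0.33, -0.48, -0.40 and -0.51 in the same gene order. All 4 genes were lower in deficient muscle in both comparisons. That direction was fixed beforehand, because their groups did not overlap in any library, so it is no separate support. With the presence of these transcripts as a block, Pdhb (adjusted p = 0.0429) and Dlat (adjusted p = 0.0433) were called, in a fit that called 1160 genes.

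The 4 kinase genes did not share a direction, and for 3 of them the deficient libraries were further apart from each other than for 83.2% or more of all genes. The SD over the 3 deficient libraries on the log2 scale was 0.25 for Pdk1, 0.50 for Pdk3, 0.90 for Pdk2 and 1.76 for Pdk4, beside a median of 0.28 over all genes. The same SD over the 3 wild type libraries was 0.27 for Pdk1, 0.07 for Pdk3, 0.34 for Pdk2 and 0.35 for Pdk4, beside a median of 0.22. By their brightest probe sets the subunit genes were tight, each below the median of 0.28 in deficient libraries. Their SD there was 0.03 for Pdhb, 0.11 for Dlat, 0.13 for Pdha1 and 0.16 for Dld. Their other tested probe sets spread further in deficient libraries, 2.11-fold for Pdha1, 1.99-fold for Pdhb, and 1.35-fold and 1.22-fold for Dlat. All 7 kinase probe sets overlapped between the groups, as most genes did. Of 13113 genes, 1631 separated the groups with deficient lower and 1608 with deficient higher.

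Pdk4, the kinase that fasting raises in muscle, read 795.3, 779.8 and 6603.2 in deficient libraries, against 1235.7, 800.9 and 1204.3 in wild type libraries. Deficient replicates 1 and 2 stood just below the lowest wild type library, and deficient replicate 3 stood 8.47-fold above the lowest deficient one. The log2 fold change was 0.59 (-0.94 to 2.12, adjusted p = 0.690), and without deficient replicate 3 it was -0.42 (adjusted p = 0.286). The SD of Pdk4 among deficient libraries was larger than that of 99.9% of genes tested. In deficient replicate 3 it lay 3.04 log2 units above the mean of the other 2 deficient libraries, which ranked 3 among 13113 genes for such an excess. The mean was 2726 ± 3358 in deficient and 1080 ± 242 in wild type libraries (SD, n = 3 each). Wild type replicate 3, which also lacked Y-linked transcripts, read 1204.3, close to wild type replicate 1. Among the libraries with Y-linked transcripts, 2 in each group, the log2 difference of Pdk4 was -0.33, and between the pair without them it was 2.44.

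A list of 28 genes, chosen with earlier results of these data known, held regulators of Pdk4 and genes of the switch to fatty acids. It also held the atrophy ligases Fbxo32 and Trim63 and glucocorticoid targets such as Fkbp5. Of the 26 tested, 0 were called between the groups, 1 had an unadjusted p under 0.05 (Nr3c1), and the median log2 fold change was -0.02. By library the list was uneven. In deficient replicate 3, 22 of the 26 genes lay above the mean of the other 2 deficient libraries. The median difference was 0.61 for the list and -0.03 over all genes. By more than 1 log2 unit, 9 of the 26 lay above, as did 2.46% of all genes. In wild type replicate 3, 24 of the 26 lay above the mean of the other 2 wild type libraries, with a median difference of 0.41, beside 0.01 over all genes. Of these, 4 did so by more than 1 log2 unit, beside 1.17% of all genes. In the remaining 4 libraries 0 genes of the list lay that far above. These counts describe the list and are not a test.

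Fbxo32, a ubiquitin ligase of muscle atrophy, read 218.2, 168.3 and 2814.5 in deficient libraries, against 143, 159.1 and 248.4 in wild type libraries. It ranked just above Pdk4 for its excess in deficient replicate 3. Trim63, the other well known atrophy ligase, read 1016.1, 1411.5 and 4565.7 in deficient libraries, against 1287.6, 1355.2 and 1566.4 in wild type libraries. Fkbp5, a classic glucocorticoid target, read 292.4, 187.2 and 942.8 in deficient libraries, against 218.2, 124.9 and 405 in wild type libraries. For all of these the highest value of the 6 was deficient replicate 3, and the fold changes between the groups did not pass. They were picked after their values were seen. Foxo1, a transcription factor that induces Pdk4, read 125.1, 163 and 376.7 in deficient libraries, against 193.6, 138.8 and 242.2 in wild type libraries. Klf15, which glucocorticoids induce, read 172.1, 254.8 and 670.7 in deficient libraries, against 147.9, 122.9 and 403.9 in wild type libraries, and was thus high in replicate 3 of either group. Nr3c1, the glucocorticoid receptor, had lower signal in deficient libraries, at 753.7, 497.5 and 604.2, against 843.5, 829.6 and 883.3 in wild type libraries (-0.47, adjusted p = 0.210). Lpin1 stood at -0.41 (adjusted p = 0.287) and Acadm, of fatty acid oxidation, at -0.37 (adjusted p = 0.359).

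The 4 genes whose profile over the 6 libraries was closest to Pdk4 were Zbtb16, Plin5, Ank3 (ankyrin G) and Acot2 (a mitochondrial acyl-CoA thioesterase). Their root mean square distance from Pdk4, after each gene's mean was taken off, was 0.39 to 0.43 log2 units, beside a median of 1.12 over all genes. Zbtb16, a zinc finger transcription factor, read 253.7, 279.6 and 1457.9 in deficient libraries, against 225.8, 261.3 and 474.7 in wild type libraries. Plin5, a coat protein of lipid droplets in oxidative tissue, read 84.5, 105.5 and 603.8 in deficient libraries, against 141.2, 135.1 and 249.4 in wild type libraries. All 4 were highest in deficient replicate 3, which their choice by likeness to Pdk4 favours. The next pair was picked, after the values were seen, from the genes furthest below the other deficient libraries in that library. Fasn, the fatty acid synthase, read 2596.4, 2448.6 and 147.8 in deficient libraries, against 3215.7, 1913 and 3794.9 in wild type libraries. Acly, which makes acetyl-CoA from citrate in the cytosol, read 2386.8, 1627.8 and 190.2 in deficient libraries, against 3801.8, 1793.4 and 3567.9 in wild type libraries. Of the white adipocyte markers, Adipoq read 4102.9, 4154.8 and 1480.5 and Retn read 1937, 1645.5 and 541 in deficient libraries, so both were also lowest in deficient replicate 3, while Fabp4 was not, at 7764.6, 9158.4 and 8280.3. In wild type libraries these markers read 3503.3, 2924.7 and 4027.9 for Adipoq, 970.3, 462.8 and 796.4 for Retn, and 8485.4, 7599.6 and 10195.8 for Fabp4. The other tested white adipocyte markers were mixed in deficient libraries. Cidec was lowest in deficient replicate 3 (322.3, 504.9 and 226.6), Lep was not (2.6, 40.6 and 8.6), and Pck1 was highest there (120.5, 168.6 and 230.2). The part of adipocytes in these values was not tested.

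**Figure D3:**
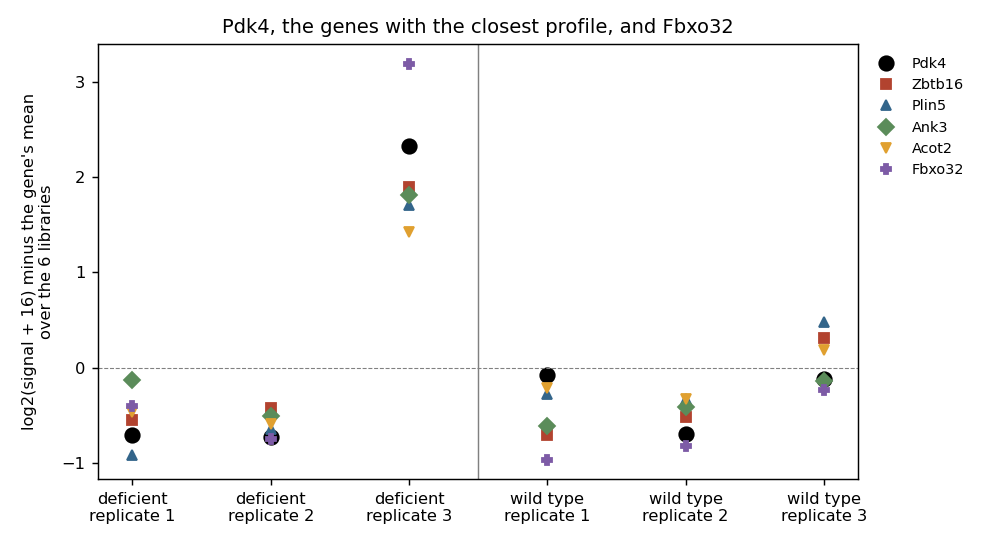
Log2(signal + 16) minus each gene's mean over the 6 libraries, for Pdk4, its 4 closest profiles and Fbxo32, with the 3 deficient libraries on the left and the 3 wild type libraries on the right. All 6 genes are highest in deficient replicate 3, where Pdk4 lay 3.04 log2 units above the mean of the other 2 deficient libraries. The 4 profiles were chosen by likeness to Pdk4 and Fbxo32 after its values were seen, so their peak there is no separate support.

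Pdk2, the most widely expressed kinase of the family, read 240.9, 500.7 and 869.8 in deficient libraries, against 635.2, 917.4 and 1003.3 in wild type libraries. Deficient replicates 1 and 2 lay below all wild type libraries and deficient replicate 3 lay among them. The log2 fold change was -0.80 (-1.67 to 0.07, adjusted p = 0.304). It was -1.23 without deficient replicate 3 (adjusted p = 0.0527) and -0.33 without deficient replicate 1 (adjusted p = 0.568). The mean was 537 ± 316 in deficient and 852 ± 193 in wild type libraries (SD, n = 3 each). Among libraries with Y-linked transcripts the difference was -1.10, and between the pair without them -0.20. The closest profiles to Pdk2 were those of Sugp2, Cyp2c70, Smr2 and Cep85, at 0.23 to 0.26 log2 units beside a median of 0.74 over all genes. Sugp2 read 49.2, 110.2 and 146.4 in deficient libraries, against 137.1, 141.7 and 170 in wild type libraries. The order of the 3 deficient libraries was that of Pdk2, which the choice by likeness favours.

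Pdk3, a kinase known mainly from testis, kidney and brain, gave a low signal, with 75.8, 70.5 and 32.9 in deficient libraries, against 38.5, 33.7 and 37.7 in wild type libraries. Deficient replicates 1 and 2 were nearly alike and above every wild type library, and deficient replicate 3 was the lowest of all 6. The log2 fold change was 0.47 (-0.13 to 1.08, adjusted p = 0.380), and 0.76 without deficient replicate 3 (adjusted p = 0.0806). Among libraries with Y-linked transcripts the difference was 0.78, and between the pair without them -0.14. The macrophage marker sum, 13230, 9379 and 4750 in deficient replicates 1, 2 and 3, was lowest in the same library that stood nearest to wild type for Pdk2 and Pdk3. The part of these cells in the kinase values was not tested.

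Pdk1, a target of the hypoxia factor Hif1a in many cells, read 303.4, 432.8 and 349.8 in deficient libraries, against 391.1, 269.6 and 362.9 in wild type libraries by its brightest probe set. The groups overlapped, and the log2 fold change was 0.08 (-0.39 to 0.56, adjusted p = 0.875), which turned to -0.05 without deficient replicate 2 and to -0.07 without wild type replicate 2. The other 3 probe sets gave -0.03, -0.23 and 0.33, each with an interval that includes 0.

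The proteins that work beside the complex were read next. Pdhx, the E3 binding protein that holds Dld in the complex, read 423.1, 405.1 and 414.2 in deficient libraries, against 749.1, 753.2 and 566.3 in wild type libraries. It separated the groups as the subunit genes did, at -0.70 (-1.10 to -0.30), and did not pass (adjusted p = 0.0713). The phosphatases switch the complex back on. The catalytic phosphatase gene Pdp1 read 401.6, 345 and 434.6 in deficient libraries, against 390.3, 457.7 and 670.7 in wild type libraries (-0.32, adjusted p = 0.477). Pdp2 was dim, at 28.2 to 38.4 in deficient and 13.1 to 56.2 in wild type libraries, and Pdpr, the regulatory subunit, overlapped as well (-0.24, adjusted p = 0.570). With limma 0 of these 4 tested genes were called, and 1 (Pdhx) had an unadjusted p under 0.05.

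Genes that supply the cofactors of the complex, lipoate and thiamine, had 0 of 10 tested called by limma, 5 at an unadjusted p under 0.05, and a median log2 fold change of -0.39, with 8 of 10 below 0. Over all 13113 genes, 18.9% had an unadjusted p under 0.05 and 6222 lay below 0. Dlat and the complexes related to it carry lipoate. Bola3, needed to build the iron-sulfur clusters used in making lipoate, read 1468.9, 1366.8 and 1181.9 in deficient libraries, against 2554.3, 2277.3 and 1880.3 in wild type libraries (-0.73, adjusted p = 0.0570). Oxsm, of mitochondrial fatty acid synthesis, stood at -0.82 (adjusted p = 0.0934) and Nfu1, which hands iron-sulfur clusters on, at -0.67 (adjusted p = 0.142). The related dehydrogenase complexes, which share Dld, had 0 of 9 called, 0 at an unadjusted p under 0.05, and a median of -0.21. The smallest p-values there belonged to Bckdk, the kinase of the branched-chain complex (-0.32, adjusted p = 0.372), Dhtkd1 (0.35) and Bckdhb (-0.22).

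In the list of pyruvate supply and other fates of pyruvate, 1 of 16 genes fell, 0 rose, and the median was -0.36. Over all 13113 genes, 192 were called lower and 170 higher. Gpt2, the mitochondrial alanine aminotransferase, which interconverts pyruvate and alanine, fell to 313.2, 284.4 and 746.9 in deficient libraries, against 1057.8, 1014.9 and 1444.4 in wild type libraries. Its log2 fold change was -1.47 with an adjusted p just under the threshold, and it was lost in 11 of 18 alternatives, among them leaving out any 1 library but deficient replicate 3 (0.123 to 0.178). Mpc1, a subunit of the carrier that brings pyruvate into mitochondria, read 3171.1, 2220.3 and 2363.3 in deficient libraries, against 3748.8, 4370.6 and 4335.7 in wild type libraries (-0.69, adjusted p = 0.0626). Ldha, the muscle lactate dehydrogenase, separated the groups at -0.43 (adjusted p = 0.125), and so did Ldhd at -0.81 (adjusted p = 0.106). Over the list 5 of 16 genes separated the groups with deficient lower and 2 with deficient higher. Over all 13113 genes these counts were 1631 and 1608. The list's share with deficient higher was thus close to that over all genes. Its 2 genes were the malic enzyme gene Me2 (0.68, adjusted p = 0.188) and the monocarboxylate transporter gene Slc16a7 (0.45, adjusted p = 0.352).

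The tricarboxylic acid cycle receives the acetyl-CoA made by the complex. Of its 16 tested genes 3 fell and 0 rose, all 16 log2 fold changes were negative, and the median was -0.40. Over all 13113 genes, 192 were called lower and 170 higher, 6222 log2 fold changes were negative, and the median was 0.02. Idh3a, the catalytic subunit of isocitrate dehydrogenase, fell to 2712.7, 1998.4 and 2251.8 in deficient libraries, against 4502.3, 5239.1 and 4832 in wild type libraries (-1.07, adjusted p = 0.0104). Suclg1, of succinyl-CoA ligase, fell by 0.90 on the log2 scale (adjusted p = 0.0216), and Sdhb, the iron-sulfur subunit of succinate dehydrogenase, fell by 0.56 (adjusted p = 0.0481). Without 1 library the call for Idh3a was lost in 2 cases (wild type replicate 1, adjusted p = 0.0507, and wild type replicate 2, 0.0619). The call for Suclg1 was lost in 4 cases (deficient replicate 1, 0.0557, and wild type replicates 1, 2 and 3, 0.107, 0.0882 and 0.0671), and that for Sdhb in all 6, at 0.0628 to 0.186. The Ucp1 and actin values given above moved with these genes too. Of the 10 fibre markers, 4 separated the groups with deficient lower, while the sum of the 10 overlapped. The part of all these in the values of the cycle genes was not tested. Ogdh and Dlst, of the 2-oxoglutarate dehydrogenase complex, overlapped between the groups, at -0.21 each.

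Genes of the hypoxia response, in a list that holds regulators of Pdk1, had 2 of 18 called lower and 0 higher. These counts were 192 and 170 over all 13113 genes. The list's median was -0.21. Directions were mixed, with 11 log2 fold changes below 0 and 7 above. Vegfa, the vascular growth factor, fell to 133, 139.3 and 202.8 in deficient libraries, against 341.8, 290 and 386.7 in wild type libraries (-1.04, adjusted p = 0.0378). Pfkfb3, which makes an activator of glycolysis, fell to 251.2, 283.1 and 690.7 in deficient libraries, against 1018.8, 1199 and 1027.7 in wild type libraries (-1.51, adjusted p = 0.0447). The Vegfa call was lost in 8 and the Pfkfb3 call in 10 of 18 alternatives, for both among them leaving out any 1 library but deficient replicate 3 (0.0902 to 0.142 for Vegfa and 0.0951 to 0.169 for Pfkfb3). Pgk1, a glycolytic enzyme gene, stood at -0.53 (adjusted p = 0.0997). Hif1a, the oxygen-regulated subunit of the hypoxia factor, read 886.2, 643.3 and 652.7 in deficient libraries, against 496.7, 534.2 and 542.8 in wild type libraries (0.45, adjusted p = 0.226). Its groups did not overlap. Slc2a1 (0.56, adjusted p = 0.178), Egln3 (0.85, adjusted p = 0.191) and Ddit4 (0.75, adjusted p = 0.313) of this list also stood higher and did not pass. In the list of insulin signalling and glucose use, 0 of 8 were called by limma, 4 had an unadjusted p under 0.05, beside 18.9% of all genes, and the median was -0.11. Slc2a4, the insulin-responsive glucose transporter, read 979.2, 1091.8 and 1785 in deficient libraries, against 2008.8, 2040.4 and 2934.9 in wild type libraries (-0.88, adjusted p = 0.0940), and Akt1 stood at 0.76 (adjusted p = 0.102). Pfkm, the muscle phosphofructokinase, stood at -0.49 (adjusted p = 0.155).

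**Figure D4:**
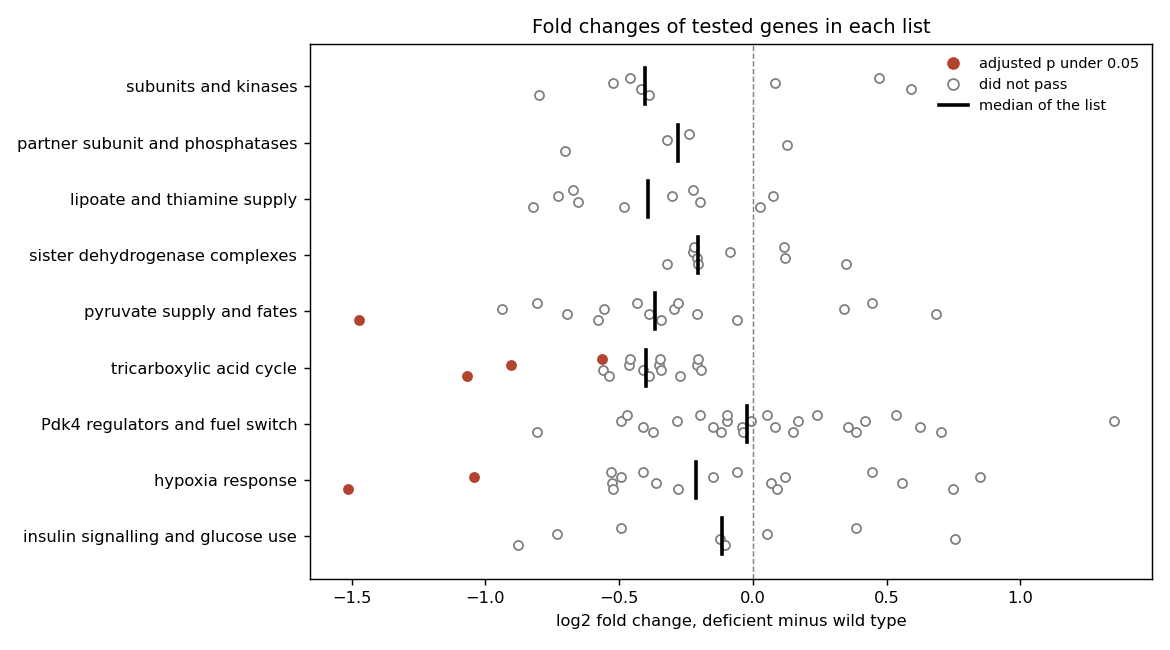
Log2 fold change, deficient minus wild type, of every tested gene in the list of subunits and kinases and in 8 related lists; red points have an adjusted p under 0.05 and the bar is the list's median. The 6 red points, 1 for pyruvate fates, 3 for the tricarboxylic acid cycle and 2 for the hypoxia response, all lie left of 0, and the median of the subunits and kinases is -0.40.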

How the data were processed

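RNA from hind limb muscle of 6 mice was hybridised to 1 array each, from 1 ug of total RNA, per the labels. The authors deposited signal intensity on a linear scale for 45101 probe sets, of which 64 were controls, 34945 had 1 gene symbol, 932 several and 9160 none. How the signals were summarised was not given in the sources used here. Without its lowest and highest 2% each array averaged about 100.0, so the deposited intensity values had been scaled. Array medians differed by at most 0.226 on the log2 scale, and nothing further was normalized. A pseudocount of 16 was added before taking log2, probe sets whose mean lay under the 40th percentile (13.9) were dropped, and the brightest remaining probe set with 1 symbol stood for a gene.

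The fit used limma 3.58.1 (R 4.3.3), with lmFit and eBayes (intensity trend, group as the only term, two-sided), over 13113 genes or, for single probe sets, over 27022 probe sets, with Benjamini-Hochberg adjustment over each table. Every adjusted p is from limma. The scripts were tested on simulated data. Named genes were the 8 genes of the complex and its kinases, Lama2, from each list the called genes and otherwise up to 3 with the smallest p, the 4 closest profiles to the kinases with the largest rise and fall, and markers; others were chosen after their values were seen. The genes and lists were chosen with earlier results of these data known. Alternatives were other scalings, pseudocounts, filters, uses of several probe sets, priors and blocks, and each library left out. Added after seeing the data were a fit without both libraries lacking Y-linked transcripts and one without both wild type libraries with hair keratins. Precision is limited by the number of arrays. Deviations of same-numbered libraries from their group means correlated at 0.15, 0.07 and 0.30, and the replicate numbers were not taken as pairs in the main fit.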

Additional observations from a re-analysis of the deposited data

How the results depend on the processing

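The direction of Pdha1, Pdhb, Dlat, Dld, Pdk2 and Pdk3 held in all 18 alternatives for each, and of 144 values over the 8 genes 136 kept direction and side of the threshold, 3 passed the threshold and 5 reversed. For Lama2 and the 24 genes taken from the pathway lists by p, of 449 values 374 kept both, 18 passed, 54 no longer passed and 3 reversed. The closest profiles, the markers and the genes chosen after their values were seen were not refitted under the alternatives. With libraries left out, Pdk1 ran from -0.0694 to 0.20, Pdk4 from -0.42 to 1.11, Dhtkd1 from -0.0156 to 0.68 and Bckdhb from -0.36 to 0.0013. Without both libraries lacking Y-linked transcripts Pdk4 was -0.33, and without both wild type libraries with hair keratins Pdk1 was -0.0177. With the mean of all probe sets Pdpr was 0.0076. Quantile normalization made the subunit falls smaller, at -0.27 for Pdha1, -0.31 for Pdhb, -0.49 for Dlat and -0.33 for Dld. In the report these were -0.42, -0.46, -0.52 and -0.39.

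Of the 8 genes, 1 was called with the mean of all probe sets, 1 with each probe set on its own and 2 with the block for Y-linked transcripts, against 0 in the report. The count of all genes called, 362 in the report, was 214 with no filter, 171 without an intensity trend, 864 with the replicate block, 1160 with the block for Y-linked transcripts and 65 to 665 with 1 library left out. It was 828 without both libraries lacking Y-linked transcripts and 19 without both wild type libraries with hair keratins. That last fit leaves 1 wild type library, assumed to vary like the deficient ones. Of the 15 probe sets of the 8 genes, 1 in the report, 0 were called without a trend, 2 with the replicate block, 2 with the block for Y-linked transcripts, 0 or 1 with 1 library left out, and 0 in both fits added after seeing the data. Without deficient replicate 1 the probe set called was Pdha1 1449137_at and not Dlat 1452005_at. Of the pathway list genes, 6 in the report, 3 were called with quantile normalization, 2 with no filter, 1 without a trend, 13 with the replicate block, 16 with the block for Y-linked transcripts, 0 to 10 with 1 library left out, and 11 and 0 in the added fits. The cause of these shifts was not tested. Deficient replicates 2 and 3 correlated best with the wild type replicates of the same number (0.07 and 0.30), and deficient replicate 1 with wild type replicate 2 (0.20). Both replicates 3 lacked Y-linked transcripts. Whether the replicate numbers pair the samples cannot be told from these values. With 3 mice in a group, an adjusted p above the threshold does not show that the groups had equal levels.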
